A study of Homo sapiens with 16 samples.

Results

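The RNAs described here are HULC and 9 other well-known long noncoding RNAs (lncRNAs): MIAT, MALAT1, NEAT1, GAS5, HOTAIR, TUG1, PVT1, SNHG1 and DLEU2. Members were the array probes whose gene name in the scanner files equals one of these 10 names, control spots left out, and all of them are accounted for. This gave 64 of the 50599 probes and 9 of the 10 names, on an array that names 32080 symbols: 14 probes for MIAT, 12 for TUG1, 11 for PVT1, 9 for HOTAIR, 8 for MALAT1, 6 for NEAT1, 2 for SNHG1 and 1 each for HULC and GAS5. DLEU2 had no probe of that name. HULC was chosen by its measured log2 signal with both inhibitors in RPMI-8226, which stood out on these same arrays, so its RPMI-8226 values are given as a description and without a test. The other names were taken as familiar lncRNAs.

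The arrays measured total RNA of RPMI-8226 and MM.1S, both established human multiple myeloma cell lines, on 1-colour Agilent microarrays. Each line was treated for 6 days with DMSO, the solvent control, with 1 µM GSK126, an inhibitor of the H3K27 methyltransferase EZH2, with 1 µM UNC0638, an inhibitor of the H3K9 methyltransferase G9a, or with 1 µM of each (GSK126 + UNC0638, the combination). There were 2 replicates in each of the 8 groups, 16 arrays in all, and no cell carried an engineered allele as far as the labels say. Levels are log2 signals relative to the 75th percentile of the same array, so 0 is the signal that 75% of probes stay under. A probe was above background where the scanner software marked it as well above background. Between 46.5% and 49.6% of spots passed that mark on the RPMI-8226 arrays and between 49.9% and 52.8% on the MM.1S arrays. All 10 myeloma and plasma cell markers looked up, among them SDC1 and IRF4, were above background in every group.

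LncRNAs are transcripts with little or no coding capacity that act as RNA or through the act of being transcribed. GAS5 and SNHG1 carry small nucleolar RNAs (snoRNAs), guides of ribosomal RNA modification, in their introns, and both spliced hosts are known to be turned over with translation. NEAT1 is the scaffold of paraspeckles, MALAT1 is held in nuclear speckles, MIAT and TUG1 are further nuclear lncRNAs, HOTAIR lies in the HOXC cluster and has been tied to Polycomb silencing, PVT1 is the neighbour of MYC, and HULC was named for its high level in liver cancer. EZH2 and G9a place the repressive histone marks H3K27me3 and H3K9me2.

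A selection of the probes on which the results turn is printed here as the scanner files hold them, 60 bases each, 5′ to 3′, with their GRCh37 (hg19) place and strand. Every one lies in an exon of the transcript the files name for it. Capitals mark AATAAA, the main polyadenylation signal, which alone does not place a probe near an RNA end. It also stands in MALAT1 probe 4, which starts at base 7640 and is not printed. It is read on the printed strand and was found in 4 of the 64 member probes (6.25%) and 3986 of all 50599 (7.88%), and a match is a string of letters, not a shown site.
HULC probe 1, chr6:8653917-8653976, plus strand, NR_004855 from base 321: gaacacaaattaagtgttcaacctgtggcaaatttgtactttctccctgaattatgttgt
GAS5 probe 1, chr1:173833049-173833108, minus strand, NR_002578 from base 562: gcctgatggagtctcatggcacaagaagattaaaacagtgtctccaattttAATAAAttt
SNHG1 probe 1, chr11:62619573-62619632, minus strand, NR_003098 from base 945: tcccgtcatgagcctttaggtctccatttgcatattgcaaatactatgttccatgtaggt
NEAT1 probe 4, chr11:65193885-65193944, plus strand, NR_028272 from base 3616: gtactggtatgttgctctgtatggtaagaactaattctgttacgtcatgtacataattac
MALAT1 probe 5, chr11:65273511-65273570, plus strand, NR_002819 from base 8278: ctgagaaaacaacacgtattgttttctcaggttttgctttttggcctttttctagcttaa
MALAT1 probe 8, chr11:65273871-65273930, plus strand, NR_002819 from base 8638: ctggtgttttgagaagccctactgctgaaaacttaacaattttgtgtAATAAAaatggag
MIAT probe 12, chr22:27066386-27066445, plus strand, NR_003491 from base 4127: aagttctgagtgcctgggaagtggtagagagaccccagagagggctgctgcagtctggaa
TUG1 probe 8, chr22:31374600-31374659, plus strand, NR_002323 from base 6323: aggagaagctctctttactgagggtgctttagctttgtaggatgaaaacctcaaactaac
TUG1 probe 11, chr22:31375241-31375300, plus strand, NR_002323 from base 6964: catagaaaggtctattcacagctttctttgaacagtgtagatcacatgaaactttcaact
HOTAIR probe 8, chr12:54356096-54356155, minus strand, NR_003716 from base 2273: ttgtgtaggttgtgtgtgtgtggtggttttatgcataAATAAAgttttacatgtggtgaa

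Detection differed by gene. Of the 64 probes, 48 were above background on all 16 arrays, 9 on some and 7 on none. MALAT1 (8 of 8), NEAT1 (6 of 6) and GAS5 (1 of 1) were above it on all arrays, as were 11 of 12 TUG1, 10 of 11 PVT1 and 10 of 14 MIAT probes. Only 1 of 9 HOTAIR probes was, 6 were at background everywhere, and SNHG1 had 1 of 2 probes above it. Probes are not replicates: 9 pairs, in MIAT, NEAT1, HOTAIR, TUG1 and PVT1, share 19 to 52 bases. A probe was tested in a cell line if both replicates of some group there were above background. By this filter 55 member probes were tested in RPMI-8226 and 53 in MM.1S.

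In RPMI-8226 no listed RNA passed the test with either inhibitor alone. No member was called (limma, Benjamini-Hochberg adjusted p under 0.05 over all probes kept) with GSK126, where 0.599% of all probes were, or with UNC0638, where 0.634% were. With the combination 12.4% of all probes were called and 1 of 55 members (1.82%), HULC, from which nothing is read because this contrast chose it. With the replicate number as a block 1 member was called with either inhibitor alone, where 2.21% (GSK126) and 1.81% (UNC0638) of all probes were. It was HULC, from which nothing is read because it was chosen on these arrays. With HULC aside, the member probes lay between -0.90 and 0.71 on the log2 scale in the 3 comparisons. With 2 arrays per group, a change that was not called is not shown to be absent.

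In MM.1S more of the same RNAs were called, and the combination called the most of them. GSK126 called 1 of 53 (1.89%, all probes 7.58%), UNC0638 called 6 of 53 (11.3%, all probes 29.3%) and the combination 20 of 53 (37.7%, all probes 53.9%). With UNC0638, 2 members were higher and 4 lower, against 12.8% and 16.5% of all probes. With the combination, 15 were higher and 5 lower, against 22.2% and 31.7% of all probes. The median change of members with the combination was 0.37 (all probes -0.12). The member shares called were below the background in all 3 comparisons. The median over all probes in this comparison went from -0.12 to 0.07 when the percentile was taken over probes detected on all arrays, and the share of called probes that were higher from 41.2% to 57.5%. Without DMSO replicate 2 or combination replicate 2 the count with the combination was 9 in place of 20, and without DMSO replicate 1 it was 12. The count with UNC0638 was 3 in place of 6 without DMSO replicate 2 or either UNC0638 replicate, and 4 without DMSO replicate 1, with GAS5, SNHG1 probe 1 and PVT1 probe 1 called in each. The combination calls of GAS5, SNHG1 probe 1, HOTAIR probe 8, TUG1 probe 8 and PVT1 probes 1, 4 and 11 held in every fit that left out a replicate. MIAT, TUG1 and PVT1 gave the higher probes, and GAS5, SNHG1, HOTAIR and 1 probe each of PVT1 and TUG1 the lower ones.

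**Figure D1:**
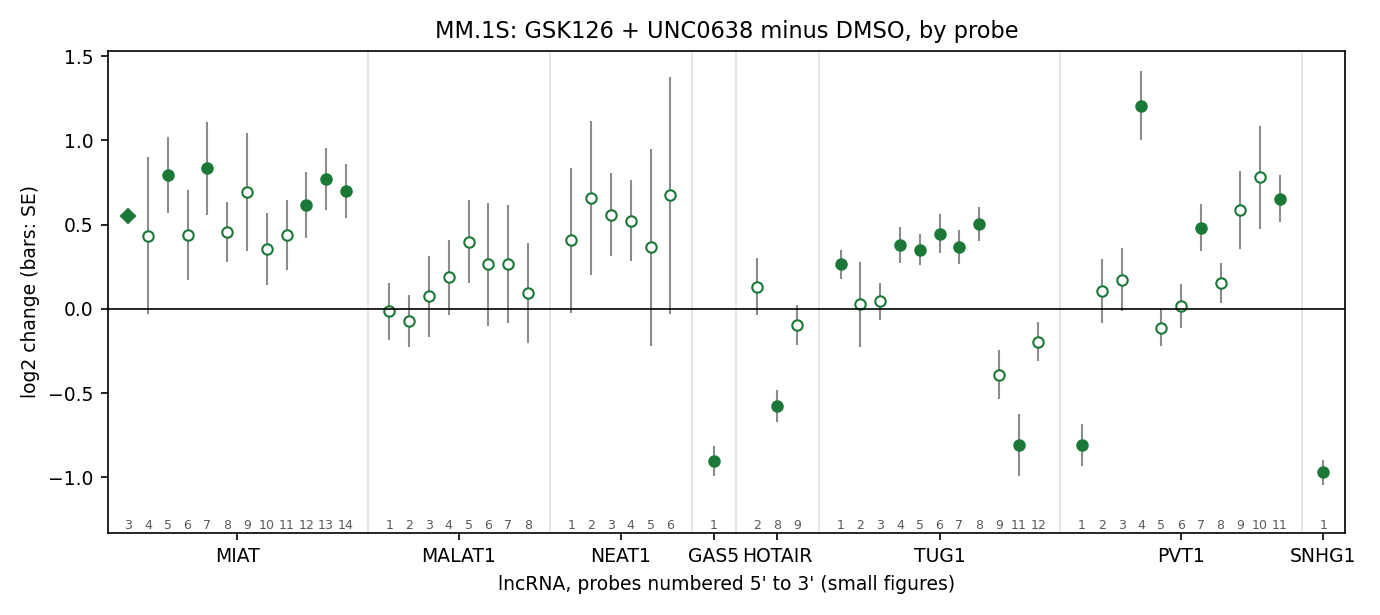
Change of each tested member probe with GSK126 + UNC0638 against DMSO in MM.1S, log2 on the vertical axis with standard error bars, probes in transcript order along the horizontal axis. Filled circles were called, open circles were not, and the diamond of MIAT probe 3 is a lower bound; GAS5 and SNHG1 sit near -0.9 while most MIAT and TUG1 probes lie above 0.

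HULC was at background in untreated RPMI-8226 and bright with the combination. Its levels were -5.53 and -6.29 with DMSO, -2.84 and -3.35 with GSK126, -3.33 and -3.94 with UNC0638, and 3.15 and 1.90 with GSK126 + UNC0638 (replicates 1 and 2). In scanner units these were 7.33 and 3.81, 35.8 and 33.4, 32.6 and 22.8, and 2848 and 1150, on arrays whose 75th percentile lay between 256 and 349. The DMSO arrays were not above background, both arrays of every other group were, and the 4 groups did not overlap except the single inhibitors with each other. The combination was at least 121-fold over DMSO, a lower bound because the DMSO level is set to the lowest signal above background. It was 49.1-fold over GSK126 alone and 71.6-fold over UNC0638 alone. GSK126 alone was at least 2.47-fold and UNC0638 alone at least 1.69-fold over DMSO. The replicate SD was 0.88 with the combination and 0.54, 0.36 and 0.43 in the DMSO, GSK126 and UNC0638 groups. With a background correction that adds an offset of 50 to every spot (normexp), which pulls dim spots together, the differences from DMSO became 0.63, 0.34 and 4.81 on the log2 scale in the same order of treatments.

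In MM.1S the HULC probe was above background on none of the 8 arrays. Its levels there were -6.84 and -6.76 with DMSO, -6.84 and -6.92 with GSK126, -5.41 and -6.45 with UNC0638, and -5.59 and -6.71 with the combination, and no fold is given. Hepatocytes are the cells in which HULC is best known. Of 15 hepatocyte markers, between 0 and 3 were above background per group: in RPMI-8226, APOA1 with DMSO, APOA1, SERPINA1 and FGG with GSK126, and TTR and SERPINA1 with the combination. TTR was at least 7.35-fold over DMSO with the combination in RPMI-8226 (limma adjusted p 4.31e-04). In MM.1S they were SERPINA1 with GSK126 and the combination and APOH with UNC0638 and the combination. ALB was at background in all groups. The level summed over the list (log2 of the summed linear values) was -1.67 and -1.46 with DMSO and 0.18 and -0.22 with the combination in RPMI-8226, and its part in the HULC result was not tested. Within 500 kb of HULC the array has 13 probes of 9 other symbols, of which 2 could be tested in RPMI-8226 and 0 were called with any treatment. Over the 8 RPMI-8226 arrays and 23199 probes, the probes whose levels ran most like HULC were those of ZP4 (Pearson r 0.990), P2RY1 (0.988) and MYO1E (0.987). These arrays share the same 4 treatments, so the likeness mostly reads the combination against the rest.

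**Figure D2:**
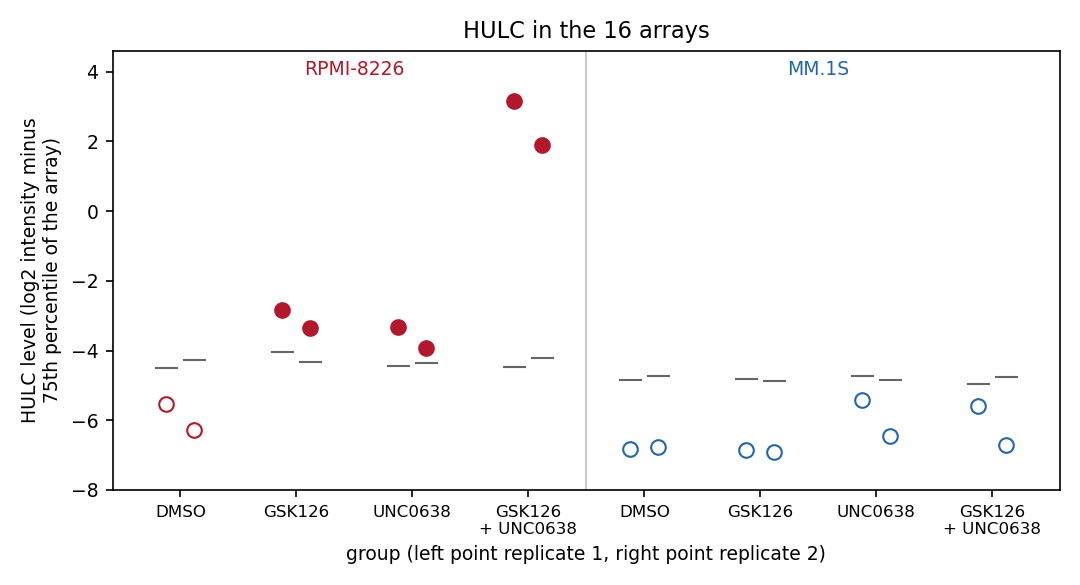
Level of the HULC probe on each of the 16 arrays, log2 relative to the array's 75th percentile on the vertical axis, by treatment for each cell line. Filled points are above background and open points are not; only the 2 RPMI-8226 combination arrays, at 3.15 and 1.90, lie above 0.

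GAS5 and SNHG1, the snoRNA hosts, fell with UNC0638 and further with the combination in MM.1S. GAS5, a host induced at growth arrest, read 6.44 and 6.45 with DMSO, 6.10 and 6.19 with GSK126, 5.78 and 5.85 with UNC0638, and 5.46 and 5.63 with the combination in MM.1S. The 4 groups did not overlap and stood in that order. The change was -0.63 with UNC0638 (SE 0.09, limma adjusted p 0.00633) and -0.90 with the combination (SE 0.09, adjusted p 6.70e-04), and -0.30 with GSK126 (adjusted p 0.10), which was not called. With quantile normalization the same changes were -0.35 (adjusted p 0.0368) and -0.45 (adjusted p 0.00765). In RPMI-8226 the levels were 6.11 and 6.44, 5.86 and 6.10, 6.13 and 6.24, and 5.92 and 5.89, with changes of -0.30, -0.09 and -0.37, none of them called. The combination response differed between the lines by 0.53 (RPMI-8226 minus MM.1S), which did not pass the test, and passed it with the replicate block (adjusted p 0.0420).

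SNHG1 probe 1 gave the same order in MM.1S. It read 5.32 and 5.36 with DMSO, 5.07 and 5.13 with GSK126, 4.77 and 4.81 with UNC0638, and 4.35 and 4.39 with GSK126 + UNC0638. The change was -0.55 with UNC0638 (SE 0.07, limma adjusted p 0.00549) and -0.97 with the combination (adjusted p 3.41e-04). With quantile normalization these were -0.28 (adjusted p 0.0377) and -0.63 (adjusted p 0.00119). RPMI-8226 read 4.97 and 5.15, 5.00 and 5.07, 5.18 and 5.07, and 4.62 and 4.79, so that only the combination group lay below its DMSO arrays. That change was -0.36, and the combination response differed between the lines by 0.61 (SE 0.15, adjusted p 0.0232). This call was lost without RPMI-8226 combination replicate 2 (0.53, adjusted p 0.0672) or without any 1 of the MM.1S DMSO and combination replicates (0.59 to 0.63, adjusted p 0.0631 to 0.0773). SNHG1 probe 2 was at background on all arrays. With each line's mean taken out, over 16 arrays and 21370 probes, the probes most like GAS5 included those of SNHG5 (r 0.979), another snoRNA host, and EEF1G (0.969), a translation elongation factor. Those most like SNHG1 were ALKBH2 (0.987), NPM3 (0.986) and C17orf76-AS1 (0.980).

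**Figure D3:**
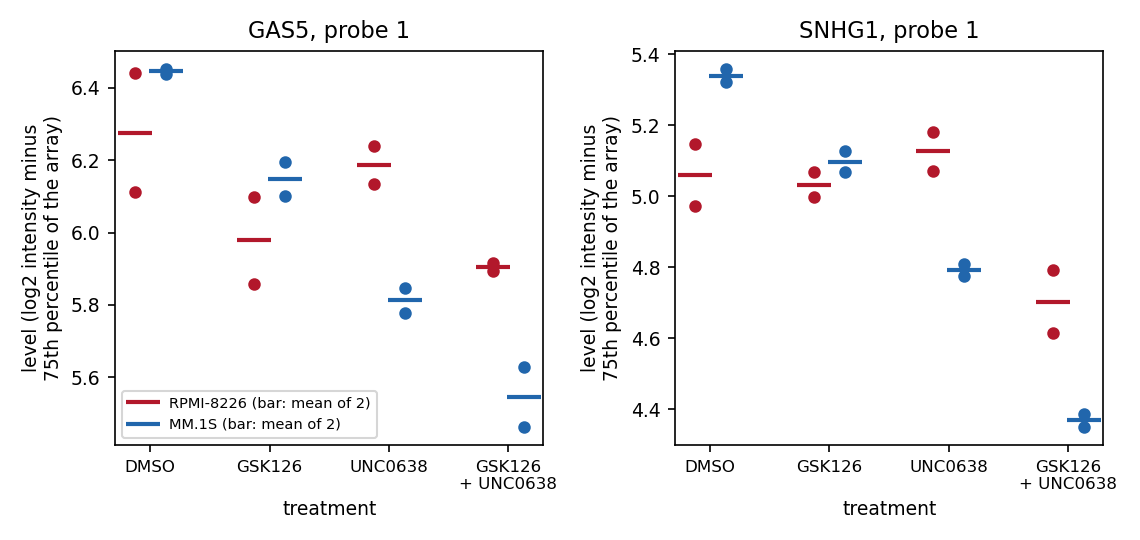
Levels of GAS5 probe 1 and SNHG1 probe 1 on each array, log2 relative to the array's 75th percentile, by treatment for each cell line. Points are single arrays; in MM.1S both probes step down from DMSO to GSK126, UNC0638 and the combination, from 6.44 and 6.45 to 5.46 and 5.63 for GAS5.

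The array also carries probes for the snoRNAs encoded within these hosts, 8 within GAS5 and 8 within SNHG1 (probes within 5 kb, a set chosen after values were seen). In MM.1S the combination lowered 7 of the 8 GAS5 snoRNA probes, with a median change of -0.92, and 4 of the 8 SNHG1 ones, with a median of -0.55 (all probes -0.12). Of all probes 31.7% were lower. In the GAS5 set the largest changes were SNORD79 (-1.51, limma adjusted p 1.50e-04), SNORD74 (-1.18, 0.00188) and SNORD80 (-1.10, 4.26e-04), and SNORD75 was not called (-0.38, 0.133). SNORD79 read -1.61 and -1.58 with DMSO, -2.40 and -2.33 with GSK126, -2.84 and -2.75 with UNC0638, and -3.16 and -3.07 with the combination in MM.1S, again without overlap. In the SNHG1 set SNORD29 (-1.17, 2.87e-04), SNORD25 (-1.13, 8.90e-04), SNORD27 (-0.78, 0.00867) and SNORD22 (-0.69, 0.0293) fell, while SNORD26 read 0.15 (0.516). With UNC0638 alone 3 GAS5 snoRNA probes were lower, SNORD79 (-1.20, 9.19e-04), SNORD74 (-0.94, 0.0107) and SNORD80 (-0.65, 0.00629), and 2 SNHG1 ones, SNORD25 (-0.94, 0.00541) and SNORD29 (-0.58, 0.00651). Of all probes 16.5% were lower with UNC0638. In RPMI-8226 the combination lowered 1 of 8 GAS5 snoRNA probes, SNORD79 (-1.02), and 0 of 8 SNHG1 ones, where 12.4% of all probes were called in either direction. In MM.1S the combination medians were -1.03 and -0.60 with quantile normalization (8 and 5 probes lower), -0.63 and -0.43 with normexp (7 and 5) and -0.74 and -0.37 with the percentile over detected probes (7 and 3). In RPMI-8226 the SNORD79 call was lost with the last 2 of these, and quantile normalization called 1 SNHG1 probe lower. Whether such probes read the mature snoRNA or the unspliced host was not tested.

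**Figure D4:**
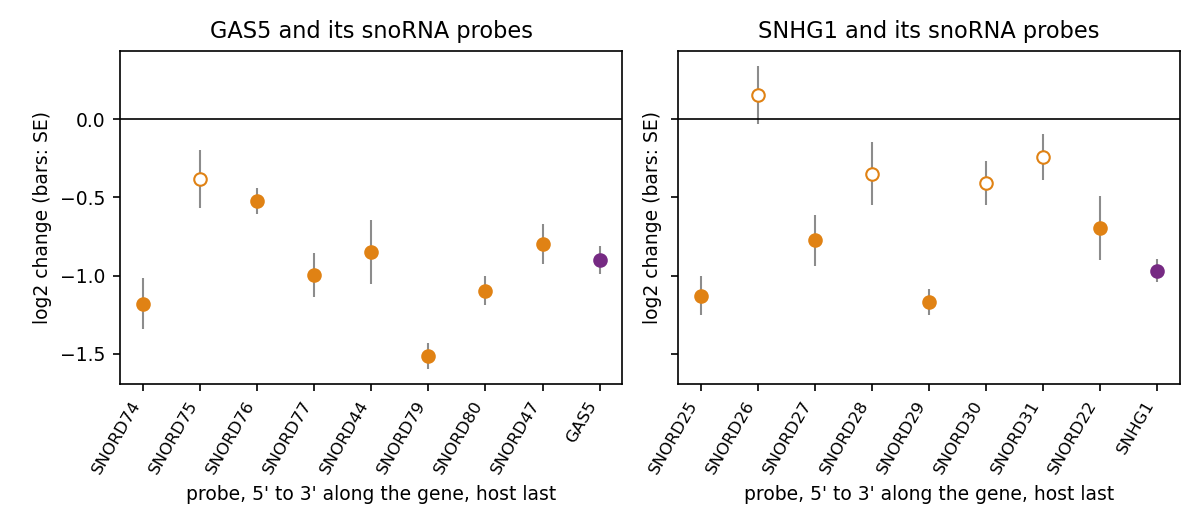
Change of the 16 snoRNA probes in GAS5 and SNHG1 with GSK126 + UNC0638 against DMSO in MM.1S, log2 on the vertical axis with standard error bars. Each panel shows 1 host, with the probe of the host itself drawn last. Filled symbols were called. Of the 16 snoRNA probes 11 were lower and 0 higher, where 31.7% of all probes were lower.

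Of 21 names of other snoRNA host genes looked up, some of them aliases, 12 are on the array under that name and were tested. In MM.1S, UNC0638 lowered 8 of them and raised 0 (median -0.43, all probes -0.07), where 16.5% of all probes were lower. The combination lowered 11 and raised 0 (median -0.70, all probes -0.12), where 31.7% of all probes were lower. SNHG4 (-1.69, adjusted p 3.69e-04, above background on 1 of the 2 combination arrays), TBRG4 (-1.04), SNHG3 (-0.94) and SNHG10 (-0.87) led the combination. With UNC0638 they were SNHG4 (-0.81), SNHG5 (-0.70), SNHG3 (-0.60) and TBRG4 (-0.55). Quantile normalization left 3 and 7 of the 12 lower, with medians of -0.25 and -0.36, and the other 2 scalings 4 or 10 and 9 or 11. In RPMI-8226 the combination lowered 2, SNHG4 (-1.11) and SNHG10 (-0.76), and single inhibitors none. The response to the combination differed between the lines for 1 of the 12, SNHG9 (0.52).

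NEAT1 and MALAT1, the nuclear body lncRNAs, were not called with any treatment in either line in the main fit (75th percentile scaling, no replicate block). They differed between the untreated lines in a way that ran along the transcript. Between the DMSO groups, 57.7% of all probes were called, 28.4% higher and 29.3% lower in RPMI-8226, and 29 of 55 members were (52.7%), 24 higher and 5 lower. The member median was 0.38 (all probes -0.02). The cell lines were hybridised on separate slides, and the slide cannot be told apart from the line in any comparison between them. With the normexp correction the median of all probes in this comparison was 0.13, and 59.0% in place of 49.2% of its calls were higher in RPMI-8226.

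**Figure D5:**
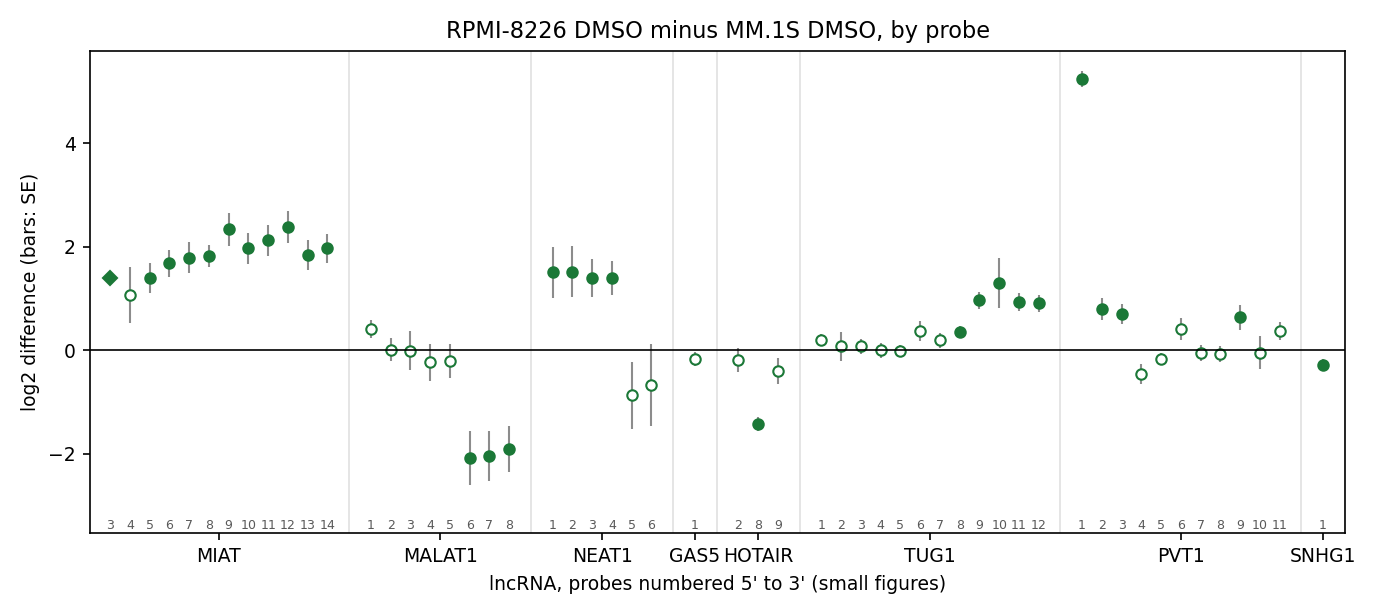
Difference between the DMSO groups of RPMI-8226 and MM.1S for each tested member probe, log2 on the vertical axis with standard error bars, probes in transcript order along the horizontal axis. Filled circles were called, open circles were not, and the diamond of MIAT probe 3 is a lower bound; MIAT lies above 0, PVT1 probe 1 stands at 5.24 while its other probes lie near 0, and MALAT1 and NEAT1 change sign or size towards the 3′ end.

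NEAT1 is made as a short polyadenylated form and a long form that holds paraspeckles together. Probes 1 to 4 lie on the short form, NR_028272, and probes 5 and 6 beyond it. Probes 1 to 4 were higher in RPMI-8226 DMSO by 1.50, 1.52, 1.39 and 1.40 (limma adjusted p 0.0219, 0.0229, 0.00715 and 0.00401). Probes 5 (-0.87) and 6 (-0.67) pointed the other way and were not called. Probe 4 read 6.18 and 7.30 with DMSO, 7.01 and 6.96 with GSK126, 6.78 and 6.49 with UNC0638, and 6.98 and 6.72 with the combination in RPMI-8226. In MM.1S it read 5.59 and 5.10, 5.54 and 4.92, 5.46 and 5.47, and 5.80 and 5.93, below every RPMI-8226 array. Probe 6 overlapped between the lines, with 0.91 and 3.07 in RPMI-8226 DMSO and 3.36 and 1.95 in MM.1S DMSO. Its replicates lay 2.16 apart in RPMI-8226 DMSO, the widest gap of any member there, where 10 of 55 members but 5.91% of all probes lay over 1 apart. The calls of probes 1 to 3 were lost without RPMI-8226 DMSO replicate 2 (0.98, 0.95 and 0.82) or MM.1S DMSO replicate 2 (1.15, 1.09 and 1.15), and that of probe 4 in no such fit. With the combination in MM.1S the NEAT1 values were 0.37 to 0.67, none called. Probes 3 and 4 were called there with quantile normalization and with normexp, and probe 3 with the replicate block.

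MALAT1 showed its difference only at probes 6 to 8, nearest the 3′ end of the transcript that the files name. They start at bases 8481, 8578 and 8638 of NR_002819. Whether these probes read the mature RNA or RNA reaching beyond its end was not tested. RPMI-8226 DMSO minus MM.1S DMSO was -2.08, -2.04 and -1.91 on the log2 scale (limma adjusted p 0.00595, 0.00442 and 0.00347). Probes 1 to 5 lay between -0.24 and 0.42 and were not called. Probe 8 read 0.18 and 1.69, 1.03 and 1.65, 1.01 and 1.02, and 1.30 and 0.98 in the RPMI-8226 groups (DMSO, GSK126, UNC0638, combination). In MM.1S it read 3.20 and 2.48, 2.45 and 1.82, 2.98 and 2.70, and 2.88 and 2.99, above every RPMI-8226 array. Probe 5, upstream of these, overlapped between the lines: 3.18 to 4.12 in RPMI-8226 and 3.34 to 4.37 in MM.1S. Within each array, the mean of probes 6 to 8 minus the mean of probes 1 to 5 was -3.15 to -2.07 over the 8 RPMI-8226 arrays and -1.37 to -0.36 over the 8 MM.1S arrays. For NEAT1, probes 5 and 6 minus probes 1 to 4 gave -4.77 to -3.52 and -2.20 to -1.33, a contrast chosen after values were seen. These show unequal differences along the transcript and not which end was equal. When the fit held only the 4 DMSO arrays, the calls of MALAT1 probes 6 to 8 and NEAT1 probes 1 to 4 were lost, and that of MALAT1 probe 6 also without MM.1S DMSO replicate 1 (-1.60, adjusted p 0.0571). With the combination in MM.1S, MALAT1 lay between -0.07 and 0.40.

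The genes of the proteins of these bodies are compared next, in MM.1S first. Of 20 paraspeckle proteins the combination lowered 11 and raised 0 (median -0.34), led by RBM14 (-0.95), PSPC1 (-0.74), CPSF6 (-0.61) and DAZAP1 (-0.54). Of 20 nuclear speckle and SR splicing proteins it lowered 15 and raised 0 (median -0.42), led by SRSF7 (-0.90), SRSF2 (-0.84), PNN (-0.83) and SRSF1 (-0.75), where 31.7% of all probes were lower. Under quantile normalization the paraspeckle list had 3 higher and 4 lower with a median of -0.03, and the speckle list 1 higher and 9 lower with a median of -0.17, so the direction of the paraspeckle list rests on the scaling. UNC0638 lowered 3 and 5 of the 20, where 16.5% of all probes were lower, and quantile normalization left 2 and 0. In RPMI-8226 the combination lowered 1 paraspeckle gene, HNRNPH3 (-0.62), and 0 of the other list. Between the DMSO groups 9 paraspeckle genes were higher in RPMI-8226 and 0 lower, and of the speckle list 7 and 2, where 28.4% of all probes were higher and 29.3% lower. With quantile normalization these were 4 and 0, and 4 and 3. NEAT1 probe 4 ran most like a MALAT1 probe (r 0.912), then EFEMP2 (0.863) and LOC100653017 (0.858), and MALAT1 probe 1 most like RPL31 (0.893), XRCC3 (0.853) and MON2 (0.823).

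MIAT, a nuclear lncRNA first described in the heart, was higher in RPMI-8226 at 11 of its 12 tested probes. Its 14 probes span chr22:27053559-27072401 on GRCh37, and 12 could be tested. Between the DMSO groups 11 of 12 were higher in RPMI-8226, by 1.39 to 2.39 on the log2 scale and at least 2.64-fold for probe 3, which was at background in MM.1S DMSO. Probe 4 (1.07) was not called. Probe 12 read 3.55 and 3.92, 4.41 and 3.88, 4.09 and 3.39, and 4.11 and 3.41 in RPMI-8226 and 1.47 and 1.23, 2.43 and 1.90, 1.49 and 1.23, and 1.93 and 2.0 in MM.1S, in the order DMSO, GSK126, UNC0638, combination. Every RPMI-8226 array lay above every MM.1S array, and the DMSO difference was 2.39 (SE 0.31, limma adjusted p 7.39e-05). Normexp gave smaller values at the dimmer probes 5 to 9, such as 0.82 for probe 5 and 1.22 for probe 9.

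In MM.1S the combination raised 6 of the 12 MIAT probes, and all 12 values lay above 0 (0.36 to 1.46). The called probes were 5 (0.79, adjusted p 0.0274), 7 (0.83, 0.0437), 12 (0.61, 0.0390), 13 (0.77, 0.0136) and 14 (0.70, 0.0128), and probe 3, at least 1.47-fold over DMSO (0.00929). Probe 14 read 0.06 and 0.03 with DMSO, 1.04 and 0.56 with GSK126, 0.44 and 0.28 with UNC0638, and 0.71 and 0.78 with the combination, so the DMSO arrays lay below all others. It was the 1 member called with GSK126 in MM.1S (0.75, adjusted p 0.0486), a call kept in 1 of the 8 fits that left out a replicate, the one without GSK126 replicate 2, where 4 members were called. UNC0638 raised probe 8 (0.61, adjusted p 0.0475), a call lost without any 1 of the UNC0638, DMSO and combination replicates. Without any 1 of the DMSO or combination replicates the combination calls of probes 7 (0.65 to 1.02, adjusted p 0.0652 to 0.186) and 12 (0.49 to 0.74, 0.0666 to 0.164) were lost, and those of probes 5, 13 and 14 in 3 of these 4 fits. Quantile normalization ended the combination calls of probes 5 and 7. In RPMI-8226 the 12 probes lay between -0.16 and 0.69 and were not called. Among neighbours within 500 kb, CRYBB1 (1.40) and SRRD (1.27) were also higher in RPMI-8226 DMSO, as was LOC100129936 (at least 2.23-fold). Of the 9 neighbour probes called past 2-fold in this comparison, 6 were higher and 3 lower in RPMI-8226, the lower ones all of XLOC_014192. The probes most like MIAT probe 12 over 16 arrays were CORO6 (r 0.897), CLCF1 (0.874) and C9orf30 (0.873).

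TUG1, which RefSeq now lists as protein coding, moved by small amounts and not the same way along its length. Its 12 probes span chr22:31371927-31375336. In MM.1S the combination raised probes 1 (0.27), 4 (0.38), 5 (0.35), 6 (0.45), 7 (0.37) and 8 (0.51, SE 0.10, limma adjusted p 0.00770), the others at adjusted p of 0.0195 to 0.0398, and lowered probe 11 (-0.81, SE 0.18, adjusted p 0.0119). Probe 8 read 1.50 and 1.54, 1.78 and 1.76, 1.86 and 1.82, and 1.89 and 2.15 in MM.1S, with the DMSO arrays below all others. Probe 11 read -2.01 and -2.18, -2.05 and -1.78, -2.45 and -2.21, and -3.12 and -2.68 there, with the combination below all others. It was the only probe called lower, and probe 12, which shares 24 bases with it, was not called in the main fit. Within each array the mean of probes 9 to 12 minus that of probes 1 to 8 was taken, after values were seen. This was -3.20 and -3.82 with DMSO and -4.35 and -4.14 with the combination in MM.1S. Without any 1 of the DMSO or combination replicates probes 1 and 4 lost the call, probes 5, 6 and 7 did so in 2 or 3 of these 4 fits, and probe 11 did so without DMSO replicate 1 (-0.72, adjusted p 0.0636). The opposite signs of probes 8 and 11 held under all 3 other scalings, where probe 11 lay between -0.99 and -0.49. In RPMI-8226 probe 8 read 1.84 and 1.89, 1.61 and 1.84, 1.79 and 1.75, and 1.96 and 1.77, and probe 11 -1.03 and -1.30, -1.23 and -1.44, -1.12 and -1.19, and -1.07 and -1.21, and neither was called. Between the DMSO groups probes 8 to 12 were higher in RPMI-8226, by 0.35, 0.96, 1.30, 0.93 and 0.91, while probes 1 to 7 lay between -0.02 and 0.38 and were not called. Probe 8 lost that call under each other scaling, probes 8 and 10 when the fit held only the DMSO arrays, probe 8 without any 1 DMSO replicate, and probe 10 without RPMI-8226 DMSO replicate 1 (0.94) or MM.1S DMSO replicate 2 (0.36). Neighbours that rose with the combination in MM.1S were LOC100506075 (1.77), DUSP18 (1.70) and PIK3IP1 (1.50). TUG1 probe 1 ran most like C1QTNF6 (r 0.906), TTLL1 (0.876) and MST1 (0.875).

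HOTAIR could be tested at 3 of its 9 probes, and the others were at background. Probe 8, the 1 above background on all arrays, read 0.18 and 0.07 with DMSO, -0.20 and -0.27 with GSK126, -0.35 and -0.32 with UNC0638, and -0.36 and -0.55 with the combination in MM.1S. The DMSO arrays lay above all others. In RPMI-8226 it read -1.39 and -1.22, -0.93 and -1.26, -1.56 and -1.38, and -1.21 and -1.17, below every MM.1S array. The DMSO difference was -1.42 (RPMI-8226 minus MM.1S, SE 0.13, limma adjusted p 6.65e-06). In MM.1S UNC0638 changed it by -0.46 (adjusted p 0.0188, lost without either UNC0638 or either DMSO replicate) and the combination by -0.58 (SE 0.10, adjusted p 0.00381). The combination response differed between the lines by 0.69 (0.11 against -0.58, adjusted p 0.0386), a call lost under quantile normalization (adjusted p 0.0518) and kept in 5 of the 16 fits that left out 1 replicate. Without 1 of the DMSO or combination replicates the lost values were 0.59 to 0.79 (adjusted p 0.0504 to 0.132). Probes 2 and 9 were not called, probe 9 with MM.1S DMSO replicate 1 missing as an outlier spot, so the HOTAIR result rests on 1 probe. Of the 9 HOXC genes around it 0 could be tested in RPMI-8226 and 1 in MM.1S, HOXC4, which was at least 1.60-fold higher with the combination (adjusted p 0.00186). Also within 500 kb, NFE2 was higher in RPMI-8226 with GSK126 (at least 3.11-fold) and the combination (at least 2.57-fold). The probes most like HOTAIR probe 8 were SAMD11 (r 0.911), RNF122 (0.910) and TYMP (0.896).

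PVT1 lies on chromosome 8 beside MYC, and its first probe stood apart from the other 10. Probe 1, from base 123 of NR_003367, read 4.08 and 4.16, 3.83 and 3.98, 4.11 and 4.18, and 3.47 and 3.86 in RPMI-8226. In MM.1S it read -1.08 and -1.15, -0.99 and -1.20, -1.91 and -2.08, and -1.80 and -2.04. The DMSO difference was 5.24 (SE 0.15, 37.7-fold higher in RPMI-8226, limma adjusted p 8.56e-10), where the other 10 probes lay between -0.46 and 0.80. Of those, probes 2 (0.80), 3 (0.70) and 9 (0.64) were called, and lost the call without MM.1S DMSO replicate 2 (0.70, 0.60 and 0.30), probe 9 also without RPMI-8226 DMSO replicate 1 (0.40). Within each array the mean of probes 2 to 11 minus probe 1 was -5.12 to -4.85 in RPMI-8226 and -0.13 to 1.22 in MM.1S, a contrast chosen after values were seen.

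With UNC0638 or the combination in MM.1S, PVT1 probe 1 fell and some probes further along rose. UNC0638 lowered probe 1 (-0.88, limma adjusted p 0.00635) and raised probe 4 (0.71, 0.0460), which starts at base 1311. The latter call was lost without any 1 of the UNC0638, DMSO and combination replicates. The combination lowered probe 1 (-0.81, 0.00292) and raised probes 4 (1.21, 0.00392), 7 (0.48, 0.0278) and 11 (0.65, 0.00884). These were 4 of the 11 probes, and the others, which lie among them, were not called. One of those is probe 8, which shares 47 bases with probe 7. Probe 7 lay between 0.36 and 0.60 when 1 DMSO or combination replicate was left out. Probe 4 read -0.27 and -0.64 with DMSO and 0.81 and 0.69 with the combination, and probe 11, from base 1805, 0.55 and 0.27 and then 1.18 and 0.95. In RPMI-8226 probe 4 read -1.06 and -0.77 with DMSO and -0.64 and -0.96 with the combination, and probe 11 0.63 and 0.92 and then 0.21 and 0.07. The combination response differed between the lines at probe 4 (-1.09, SE 0.28, adjusted p 0.0288) and at probe 11 (-1.29, SE 0.25, adjusted p 0.00847), and at probe 1 the values were -0.45 and -0.81 with no call. The call at probe 11 held in every fit that left out a replicate, and that at probe 4 was lost in 5 of the 8 that left out a DMSO or combination replicate (-1.14 to -0.90, adjusted p 0.0689 to 0.104). MYC, measured by a probe 53.6 kb from PVT1, fell in MM.1S with UNC0638 (-1.15, adjusted p 0.00287) and the combination (-1.71, adjusted p 2.81e-04) and was 1.19 higher in RPMI-8226 DMSO. Another MYC probe, 58.8 kb away, was at least 4.75-fold higher in RPMI-8226 DMSO and fell with the combination there (-1.48, adjusted p 0.00443, above background on 1 of the 2 combination arrays). The combination response differed between the lines in opposite directions at these MYC probes (RPMI-8226 minus MM.1S). It was 1.11 at the nearer probe (limma adjusted p 0.0103) and -2.02 at the farther one (0.0178), which was at background in MM.1S DMSO. PVT1 probe 1 ran most like IMPDH1 (r 0.963), PRR7 (0.959) and LOC93622 (0.955).

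The test of the treatment response between the lines called few members. It called 0 of 55 for GSK126 (all probes 0.783%), 0 of 55 for UNC0638 (all probes 2.89%) and 5 of 55 for the combination (9.09%, all probes 13.3%). The 5 were HULC, which the choice of the list fixed, SNHG1 probe 1, HOTAIR probe 8 and PVT1 probes 4 and 11. The combination count was 2 without MM.1S DMSO replicate 2 or combination replicate 1, and 3 without combination replicate 2 of either line. With the replicate number as a block the 3 counts were 1 (HULC), 2 and 11, where 1.79%, 5.42% and 19.2% of all probes were called.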

How the data were processed

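Total RNA (100 ng) was labelled with Cy3 and hybridised to 16 1-colour Agilent arrays, 2 per group in 8 groups. The deposited intensities are the processed signals that the authors made with Agilent Feature Extraction 10.7 (submitters' processing notes). Each array held 62976 spots, 4259 of them controls, which were left out, as were 220 to 358 outlier spots per array. Signals were divided by each array's 75th percentile, log2 transformed and averaged over the spots of a probe. Array depth is no read depth, and the number of arrays limits the precision. A probe was kept for a line where both arrays of a group were well above background (23199 in RPMI-8226, 25102 in MM.1S, 26931 in either). Tests were moderated linear models (limma 3.58.1, R 4.3.3) over the 8 arrays of a line, or all 16 for comparisons between lines, with Benjamini-Hochberg adjustment over all kept probes and a threshold of 0.05. The study describes the replicates of its expression arrays as biological, and the labels say only that they are replicates, so p-values measure the spread between these arrays.

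The members and gene lists (other lncRNAs, snoRNA hosts, paraspeckle and speckle proteins, HOXC genes, myeloma, hepatocyte, T cell and myeloid markers) were chosen with earlier results of these data known. Of each list, up to 4 called genes with the largest change per direction are named, and of neighbours within 500 kb only those past 2-fold. For a group not above background on any array, its level was set to the higher of the array's lowest signal above background and the probe's own, which gives a lower bound of the fold. Same-numbered replicates deviated together in RPMI-8226 (r 0.254 to 0.415, 6 of 6 group pairs over 0.1) but not in every pair in MM.1S (0.0847 to 0.225, 5 of 6). By the rule that every pair exceed 0.1 the numbers pair the RPMI-8226 arrays only. Each line lay on its own slide. On both slides replicate 1 lay in row 1 and replicate 2 in row 2, and each treatment had its own column. The replicate number therefore cannot be told apart from the slide row, nor the treatment from the slide column. Alternatives were quantile normalization, normexp background correction with offset 50, the percentile over detected probes, 2 other filters, a replicate block, other sets of arrays in the fit, each replicate left out and, chosen after seeing the data, the deposited series table. The fit of the combination against DMSO within each line was tested on simulated data with known changes. The other comparisons and the alternatives were not. Coordinates are those of the files (GRCh37), and gene names were checked against RefSeq on GRCh38. A gene and a probe sequence are not reported here.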

Additional observations from a re-analysis of the deposited data

Results flagged for a closer look

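The response to GSK126 + UNC0638 differed between the cell lines for 4 member probes other than HULC, by limma's test of the difference itself (RPMI-8226 minus MM.1S, Benjamini-Hochberg adjusted over all probes). HOTAIR probe 8 differed by 0.69 on the log2 scale (adjusted p 0.0386), with 0.11 in RPMI-8226 and -0.58 in MM.1S. PVT1 probe 4 differed by -1.09 (adjusted p 0.0288), with 0.12 and 1.21. PVT1 probe 11 differed by -1.29 (adjusted p 0.00847), with -0.63 and 0.65, and kept its call whichever replicate was left out. SNHG1 probe 1 differed by 0.61 (adjusted p 0.0232), with -0.36 and -0.97. Each line lay on its own slide, and the part of the slide cannot be told apart from that of the line.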

How the results depend on the processing

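Over the 75 member values that were called or belong to HULC or GAS5, and all alternatives, no call changed sign. Of the refitted values 759 kept their side of the threshold or, for HULC, which was given no test, moved by less than the replicate spread. Another 147 lost the call, 4 gained it and 13 HULC values moved by more than that spread. Other member probes gained calls too, as the counts show. The counts below are member probes called. In MM.1S the GSK126 count was 0 with quantile normalization, without a filter, with only the compared groups or with 1 fit over all arrays, 6 with normexp, 3 with the filter on all arrays and 4 with the replicate block. The MM.1S UNC0638 count was 3 without a filter, and the combination count 11 without a filter and 13 with 1 fit over all arrays. In RPMI-8226 the combination count was 0 with the filter on all arrays, which drops HULC, and 5 with 1 fit over all arrays. The RPMI-8226 counts for GSK126 and UNC0638 were 1 and 1 with the replicate block, and 1 and 1 with 1 fit over all arrays. The 1 member was HULC each time, from which nothing is read. The difference of the UNC0638 response between lines was called for 1 member with quantile normalization and 1 with normexp, 2 with the filter on all arrays and 2 with the replicate block. That of the GSK126 response was called for 1 with the block, again HULC, and that of the combination for 2 without a filter and 11 with the block. The DMSO comparison had 18 calls with only its 4 arrays. The cause of these changes was not tested. No replicate block could be fitted to the DMSO comparison, since the numbers are nested in the lines.

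Leaving out 1 replicate at a time gave 0 to 0, 0 to 0 and 1 to 1 calls in RPMI-8226, 0 to 4, 3 to 6 and 9 to 22 in MM.1S (GSK126, UNC0638, combination), 22 to 29 between the DMSO groups, and 0 to 0, 0 to 2 and 2 to 5 for the differences in response. A group left with 1 array was assumed to vary like the others. The share of all called probes that were higher moved with the scaling: with the combination in RPMI-8226 from 58.2% to 75.2% over detected probes, with UNC0638 in MM.1S from 43.7% to 59.8%, with GSK126 in MM.1S from 68.5% to 83.4%, or 54.9% with normexp, and for the difference of the UNC0638 response from 38.3% to 28.3%. With GSK126 in RPMI-8226, 139 probes were called and 86 with quantile normalization. The deposited series table matched the scanner values within 0.6%.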

Other observations

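Of 40 names of other well-known lncRNAs looked up, some of them aliases, 28 were on the array under that name. With the combination in RPMI-8226, where 12.4% of all probes were called, 3 of 17 tested were higher and 0 lower. UCA1 rose by 5.99 on the log2 scale (limma adjusted p 0.00196), and LINC00261 and MIR155HG, at background with DMSO, were at least 11.8-fold and 2.79-fold higher. In MM.1S 4 of 18 were higher and 5 lower, against 22.2% and 31.7% of all probes, shares near the background. HOTAIRM1, of the HOXA cluster, rose by 1.43, TP53TG1 by 1.26 and DGCR5 by 1.20, and MIR155HG was at least 2.73-fold higher. MIR17HG, host of the miR-17 cluster (-1.38), DLEU1 (-1.07), TERC, the telomerase RNA (-0.64), and LINC00152 (-0.45) fell. GSK126 raised HOTAIRM1 (0.82) and TP53TG1 (0.52) in MM.1S, and UNC0638 raised 3 and lowered 2. Between the DMSO groups 6 of 21 were higher in RPMI-8226, led by WT1-AS (at least 38.1-fold), and 6 lower, led by HOTAIRM1 (at least 24.5-fold), again near the 28.4% and 29.3% of all probes.

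Of 10 myeloma and plasma cell markers the combination lowered 10 in MM.1S, where 31.7% of all probes were lower. In RPMI-8226 it lowered 3 and raised 1, where 12.4% of all probes were called in either direction. Of 9 T cell and myeloid markers on the array, 5 to 8 were above background per group. Their summed level was 3.02 and 3.52 with DMSO and 5.04 and 5.08 with the combination in RPMI-8226, and 1.92 and 1.71 and then 3.16 and 3.31 in MM.1S.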
